A study of Homo sapiens with 9 samples.

Results

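The genes described here are 119 genes of the cell cycle and their relatives by name, out of 14884 genes with a named probe set on the array. They are the genes whose symbol begins with KIF, CENP, MCM and a digit, GINS, CDC (other than CDC42), CCNA, CCNB, CCND or CCNE, together with PLK1, HMMR and RRM2. The rule goes by name and holds no measured value, but it was set with earlier results of these data known. Each gene is represented by 1 probe set, the brightest on average, which mattered for 8 genes with several. By their known roles, and for CENP genes by name alone, 18 were placed under DNA replication, 47 under mitosis and 9 under cyclins. The other 45 were placed under none of these, such as the kinesins that carry cargo in non-dividing cells.

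Replication begins when CDC6 helps to load the MCM2-7 ring onto origins, and CDC7, CDC45 and the GINS complex then turn that ring into a working helicase. Mitosis follows once cyclin B and its kinase partner, helped by CDC25 phosphatases and PLK1, drive the cell into division, where kinesins build the spindle and CENP proteins form the kinetochore that holds each chromosome to it. D cyclins act early in G1, E cyclins at the entry into S phase, A cyclins through S and G2, and B cyclins at mitosis. Transcripts of the G1/S group and of the G2/M group rise at different times in a dividing cell. HEK293, a human embryonic kidney line that divides fast in culture, expresses both.

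The study measured RNA of HEK293 cells on 9 arrays, in 3 groups of 3. Mock cells are labelled naive or mock control and got no cumate. GPR39 cells are labelled as overexpressing the receptor GPR39 and got cumate, an inducer of engineered promoters, at 0.03 mg/mL. Agonist cells carry the same overexpression label and got TC-G-1008, a synthetic GPR39 agonist, at 1 uM. The labels do not say whether agonist cells also got cumate, how long any agent was present, which promoter drove the receptor, or whether the cells were 1 clone. No array comes from cells given cumate or agonist without the receptor, so receptor and cumate cannot be told apart in GPR39 against mock. In agonist against GPR39, the agonist cannot be told apart from a possible lack of cumate. Replicates are called biological without mention of separate cultures, and p-values then reflect array-to-array spread alone, which may be technical.

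Values are log2 signals per probe set as deposited, and a level of 1 probe set says nothing against that of another. A probe set was tested if it lay above the 40th percentile of its array (2.63 to 2.70) in at least 3 of the 9 arrays. Changes are differences of group means with the standard error of a limma model over all 33376 probe sets that passed, and adjusted p is Benjamini-Hochberg over all of them, with 0.05 as the threshold for a call. Of the 119 genes, 116 were tested. KIF6 and KIF25, both kinesins, and CDCP2 were too dim, lying at or below the percentile in 9, 8 and 8 arrays. The tested genes are read against all 33376 probe sets and against the 11915 named genes tested, 1 probe set each.

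The GPR39 probe set did not bear out the overexpression label. It read 2.43 to 2.55 in mock, 2.55 to 2.62 in GPR39 and 2.45 to 2.65 in agonist arrays, at or below the 40th percentile in all 9, and the groups overlapped. Which part of the transcript the probe set covers is not stated in the sources used, so what it could see of an introduced receptor is unknown. GPR39 and agonist therefore stand below for arrays so labelled, and no direction here rests on a measured rise of the receptor. Mock replicate 1 stood apart from its group. Across tested probe sets its mean correlation was 0.984 with the GPR39 arrays and 0.979 with mock replicates 2 and 3. Main counts that rest on mock are therefore given without it too. Of genes known from HEK293 cells, KRT18 read 7.74 to 8.12 and VIM 6.91 to 7.48 over the arrays. LHX1 (5.79 to 6.10), KRT8 (4.18 to 4.82) and PAX2 (3.50 to 4.43) were also above the filter. Of markers of other cells, DCN and LUM of fibroblasts and ALB and APOB of hepatocytes did not pass it, CD14, LAPTM5 and TYROBP of leukocytes read 2.59 to 3.68, and APOA1 and TTR of hepatocytes 3.40 to 4.57. The ranges of KRT8 and PAX2 overlapped those of APOA1 and TTR, so passing the filter alone does not mark a cell type.

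Promoter sequence of 6 genes, picked by hand from those called in both agonist comparisons, is shown first. These genes are taught as classes by short promoter motifs. The CHR letters, here TTTGAA or TTCGAA, are known from G2/M genes, CCAAT is bound by NF-Y, and the E2F letters, here TTTCGCGC, TTTGGCGC, TTTCCCGC or TTTGCCGC, are known from G1/S genes. The stretches are the 130 bases before the first listed RefSeq start in GRCh38.p14, read 5′ to 3′ along the gene, with CHR, CCAAT and E2F letters of either strand in capitals. The first 4 fell in both comparisons with agonist and the last 2 rose. HMMR lies at chr5:163460502-163460631 (+), PLK1 at chr16:23678759-23678888 (+), CCNB2 at chr15:59105016-59105145 (+), KIF20A at chr5:138178982-138179111 (+), CDC25A at chr3:48188418-48188547 (-) and CDC6 at chr17:40287749-40287878 (+).
HMMR: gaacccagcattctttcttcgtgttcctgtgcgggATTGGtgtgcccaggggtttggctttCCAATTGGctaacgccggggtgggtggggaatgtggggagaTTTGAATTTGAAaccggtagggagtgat
PLK1: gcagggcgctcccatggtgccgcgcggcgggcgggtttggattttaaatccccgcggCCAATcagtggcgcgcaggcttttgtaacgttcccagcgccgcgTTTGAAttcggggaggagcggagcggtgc
CCNB2: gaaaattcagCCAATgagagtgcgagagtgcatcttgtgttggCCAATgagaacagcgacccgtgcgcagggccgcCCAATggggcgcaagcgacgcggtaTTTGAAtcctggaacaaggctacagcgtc
KIF20A: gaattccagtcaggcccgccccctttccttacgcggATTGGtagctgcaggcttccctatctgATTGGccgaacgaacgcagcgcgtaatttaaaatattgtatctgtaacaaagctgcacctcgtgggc
CDC25A: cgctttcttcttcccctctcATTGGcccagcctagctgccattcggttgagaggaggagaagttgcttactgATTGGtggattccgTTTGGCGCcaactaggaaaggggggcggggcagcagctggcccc
CDC6: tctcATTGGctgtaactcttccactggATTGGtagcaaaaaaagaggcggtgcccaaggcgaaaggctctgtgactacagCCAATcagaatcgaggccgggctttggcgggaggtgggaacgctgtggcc
HMMR has TTTGAA at -28 to -23 and again directly after it at -22 to -17, and CCAAT on both strands in the overlapping run CCAATTGG. PLK1 and CCNB2 have TTTGAA at the same place, -29 to -24, with CCAAT letters upstream. KIF20A has CCAAT letters but neither CHR form. CDC25A has TTTGGCGC at -44 to -37. Of the letters searched, CDC6 has CCAAT only, but its stretch also holds tttggcgg, which differs from TTTGGCGC in the last base. Of genes called in both comparisons but not printed, CENPI (lower) held none of the searched letters in the 250 bases before the start. RRM2 (higher) and GINS1 (lower) held CCAAT letters only, and GINS2 (lower) held CCAAT and E2F letters.

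Over the 250 bases before the start, searched on both strands, promoters were listed for 99 of the 119 genes, 17 of them with several starts, of which the first was used. CHR letters stood in 13 of 42 mitosis promoters, 1 of 15 replication promoters and 1 of 6 cyclin promoters, against 14.6% of all 27305 promoters in the table and 11.6% of the 10749 of genes with a named probe set. CCAAT was in 28 of 42, 12 of 15 and 3 of 6, against 33% of all. E2F letters were in 6 of 42, 5 of 15 and 0 of 6, against 2.79% of all. Among replication, mitosis and cyclin genes that fell in agonist against mock, 8 of 19 promoters held CHR letters, against 0 of 6 that rose and 7 of 38 with no call. CCAAT letters were in 16 of 19, 5 of 6 and 22 of 38 of these, and E2F letters in 4 of 19, 1 of 6 and 6 of 38. In agonist against GPR39, CHR letters were in 3 of 7 that fell, 0 of 3 that rose and 12 of 53 with no call. Of the 21 genes that fell in agonist against mock, 15 were mitosis genes, so direction and role cannot be told apart here. A match of letters is a description, not a binding site, and the sets are small.

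Across all 116 tested genes, GPR39 against mock gave almost no calls. Just 1 gene was higher and 0 were lower by limma, where 0.749% of all probe sets were called higher (1.03% of named genes) and 0.422% lower (0.604%). At an unadjusted p under 0.05 the genes numbered 22 of 116 (19%), near the 14.8% of all probe sets and 15.9% of named genes. Without mock replicate 1 the calls were 3 higher and 1 lower, while 1.27% of all probe sets were higher and 2.73% lower. In agonist against GPR39, 6 were higher and 11 lower, and in agonist against mock 12 were higher and 27 lower. Any pair of these comparisons shares 1 group of arrays, so calls in one are not independent of calls in another.

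Set beside the table as a whole, the falls were near the background in one agonist comparison and above it in the other, and neither difference was tested. In agonist against GPR39 the background was 3.12% of probe sets higher (3.64% of named genes) and 5.95% lower (9.69%), and 11 of 116 lower is 9.48%, close to the named genes. In agonist against mock it was 6.11% higher (7.82%) and 8.94% lower (14%), against 10.3% and 23.3% of the 116, but that lower count depends on scale. With each array centred on its 75th percentile it was 12, beside 14 higher, so that 53.8% of calls were higher in place of 30.8%. All probe sets then had 6.47% lower and 8.3% higher. The lower count was also 12 when the GPR39 arrays were left out of the fit, 15 without mock replicate 2, 17 without agonist replicate 1 and 20 without mock replicate 1. In these fits 5.55%, 6.1%, 6.89% and 9.39% of all probe sets were lower. The lower count of agonist against GPR39 was 7, 6 and 6 without GPR39 replicates 1, 2 and 3. Of all probe sets 3.05%, 2.97% and 2.79% were then lower. The roles are taken in turn.

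**Figure D1:**
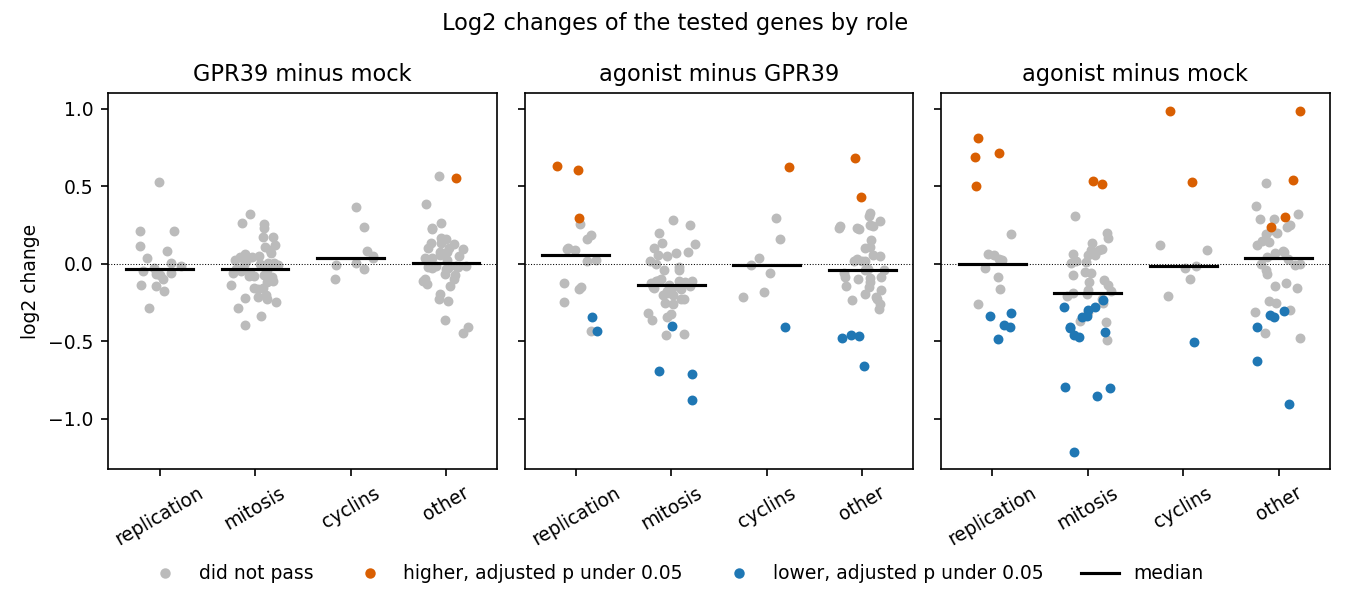
Log2 change of each tested gene (y axis) in the 3 comparisons, with 1 point per gene grouped by role (18 replication, 47 mitosis, 9 cyclin and 42 other genes). The median mitosis gene stood at -0.14 in agonist against GPR39 and -0.19 in agonist against mock, while replication genes stood at 0.06 and 0.00 with members far to both sides.

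Replication genes split when agonist arrays were compared. RRM2, CDC25A and CDC6, which serve nucleotide supply and the entry into S phase, rose in both comparisons, whereas the helicase subunits GINS1 and GINS2 fell in both. The median of the 18 was -0.04 in GPR39 against mock, 0.06 in agonist against GPR39 and 0.00 in agonist against mock, close to the 0.01, 0.01 and 0.02 of all probe sets. No replication gene was called in GPR39 against mock, 3 rose and 2 fell in agonist against GPR39, and 4 rose and 5 fell in agonist against mock. The shares were 16.7% higher and 11.1% lower against GPR39, where named genes had 3.64% and 9.69%, and 22.2% and 27.8% against mock, where they had 7.82% and 14%. RNA of bulk cells cannot tell fewer cells in a phase from less RNA per cell.

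RRM2 is the small subunit of ribonucleotide reductase, which makes DNA building blocks. It read 8.05, 8.06 and 8.0 in the mock arrays, 8.08, 8.17 and 8.12 in GPR39 and 8.73, 8.74 and 8.79 in agonist. All agonist arrays lay well above the other 6, which were close to each other. The change was 0.63 ± 0.06 in agonist against GPR39 (adjusted p = 0.000991) and 0.71 ± 0.06 in agonist against mock (adjusted p = 0.000235). CDC25A is the phosphatase that frees cyclin E and cyclin A kinases at the start of S phase. It read 7.84, 7.71 and 7.68 in mock, 7.88, 8.01 and 7.96 in GPR39 and 8.51, 8.48 and 8.66 in agonist. The 3 groups did not overlap and agonist arrays were highest. CDC25A rose by 0.60 ± 0.08 (adjusted p = 0.00409) and 0.81 ± 0.08 (adjusted p = 0.000502).

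CDC6, the loader of the MCM ring, read 8.54, 8.41 and 8.38 in mock, 8.63, 8.67 and 8.67 in GPR39 and 9.02, 8.87 and 8.94 in agonist. Again the 3 groups stood in that order without overlap. It rose by 0.29 ± 0.07 in agonist against GPR39 (adjusted p = 0.0409) and 0.50 ± 0.07 in agonist against mock (adjusted p = 0.00253). The smaller change lost its call in 7 of the 9 fits that left out 1 array, namely mock replicate 2 or any GPR39 or agonist array (adjusted p up to 0.122). The larger one kept it in all 9.

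The 4 GINS genes did not move as one, although their proteins form 1 complex. GINS1 read 7.57, 7.35 and 7.36 in mock, 7.59, 7.56 and 7.47 in GPR39 and 7.10, 7.03 and 7.20 in agonist, so that agonist arrays were the lowest. It fell by 0.43 ± 0.08 against GPR39 (adjusted p = 0.0179) and 0.32 ± 0.08 against mock (adjusted p = 0.0393). GINS2 read 7.35, 7.31 and 7.22, then 7.26, 7.18 and 7.24, then 6.97, 6.81 and 6.87 in the same order. Its agonist arrays also lay below the other 6, and it fell by 0.34 ± 0.07 (adjusted p = 0.0234) and 0.41 ± 0.07 (adjusted p = 0.00692). GINS3 went the other way against mock. It read 7.45, 7.41 and 7.11 in mock, 7.85, 7.85 and 7.86 in GPR39 and 8.05, 8.09 and 7.89 in agonist, with mock apart from both other groups. It rose by 0.69 ± 0.10 in agonist against mock (adjusted p = 0.00339). In GPR39 against mock it was higher by 0.53 ± 0.10 and just missed (adjusted p = 0.0595), but passed without mock replicate 1 (0.59, adjusted p = 0.0346).

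GINS4 fell by 0.48 ± 0.12 in agonist against mock (adjusted p = 0.0337), with arrays of 6.94, 6.74 and 6.60 in mock and a wide 6.26, 6.50 and 6.07 in agonist. A second, dim GINS4 probe set (2.55 to 3.01) stood at 0.03 in that comparison (adjusted p = 0.892). Leaving out 1 array touched these GINS falls often. Against GPR39, GINS1 lost its call without GPR39 replicate 1 or 2 or agonist replicate 1 or 2 (adjusted p up to 0.0676), and GINS2 without any GPR39 array or agonist replicate 2 or 3 (up to 0.0833). Against mock, GINS1 lost it in 8 of 9 fits (up to 0.103) and GINS4 in 7 (up to 0.089). The GINS2 fall and the GINS3 rise against mock were kept in all 9.

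The MCM helicase genes held few calls. None of the 9 was called in GPR39 against mock or agonist against GPR39, with medians of -0.07 and 0.09. In agonist against mock MCM5 fell by 0.39 ± 0.09 (adjusted p = 0.0232) and MCM6 by 0.34 ± 0.07 (adjusted p = 0.0123), both subunits of the loaded ring. MCM6 read 8.97, 8.84 and 8.78 in mock, 8.69 in each GPR39 array and 8.55, 8.50 and 8.51 in agonist, in 3 steps without overlap. Its GPR39 values had an SD of 0.0, which lowers the spread behind its standard error. MCM5 read 8.11, 7.98 and 7.81 in mock, 7.87, 7.81 and 7.78 in GPR39 and 7.60, 7.47 and 7.64 in agonist, where mock replicate 3 overlapped the GPR39 arrays. MCM5 lost its call without mock replicate 1 or 2 or agonist replicate 1 or 2 (adjusted p up to 0.071).

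The other ring subunits stood at -0.26 (MCM2, adjusted p = 0.141), 0.06 (MCM3), 0.02 (MCM4) and 0.03 (MCM7) in agonist against mock. MCM10, which helps to start the helicase, was at 0.19 (adjusted p = 0.0819), and MCM8 and MCM9, a pair that acts in DNA repair, were at -0.16 and -0.03. MCM9 was at -0.28 in GPR39 against mock (adjusted p = 0.155) and at 0.26 in agonist against GPR39 (adjusted p = 0.091), with GPR39 arrays of 6.56, 6.59 and 6.62 below all other arrays. CDC45, the helicase partner, stood at 0.06 and the origin kinase CDC7 at -0.08 in agonist against mock, neither past the threshold. The 5 falls of replication genes against mock became 1, GINS2, after centring on the 75th percentile and 2, GINS2 and MCM6, without mock replicate 1, without mock replicate 2 or without agonist replicate 1. They were 3 without any 1 GPR39 array or without agonist replicate 2. The 4 rises, of CDC25A, CDC6, GINS3 and RRM2, were called under each of these settings.

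**Figure D2:**
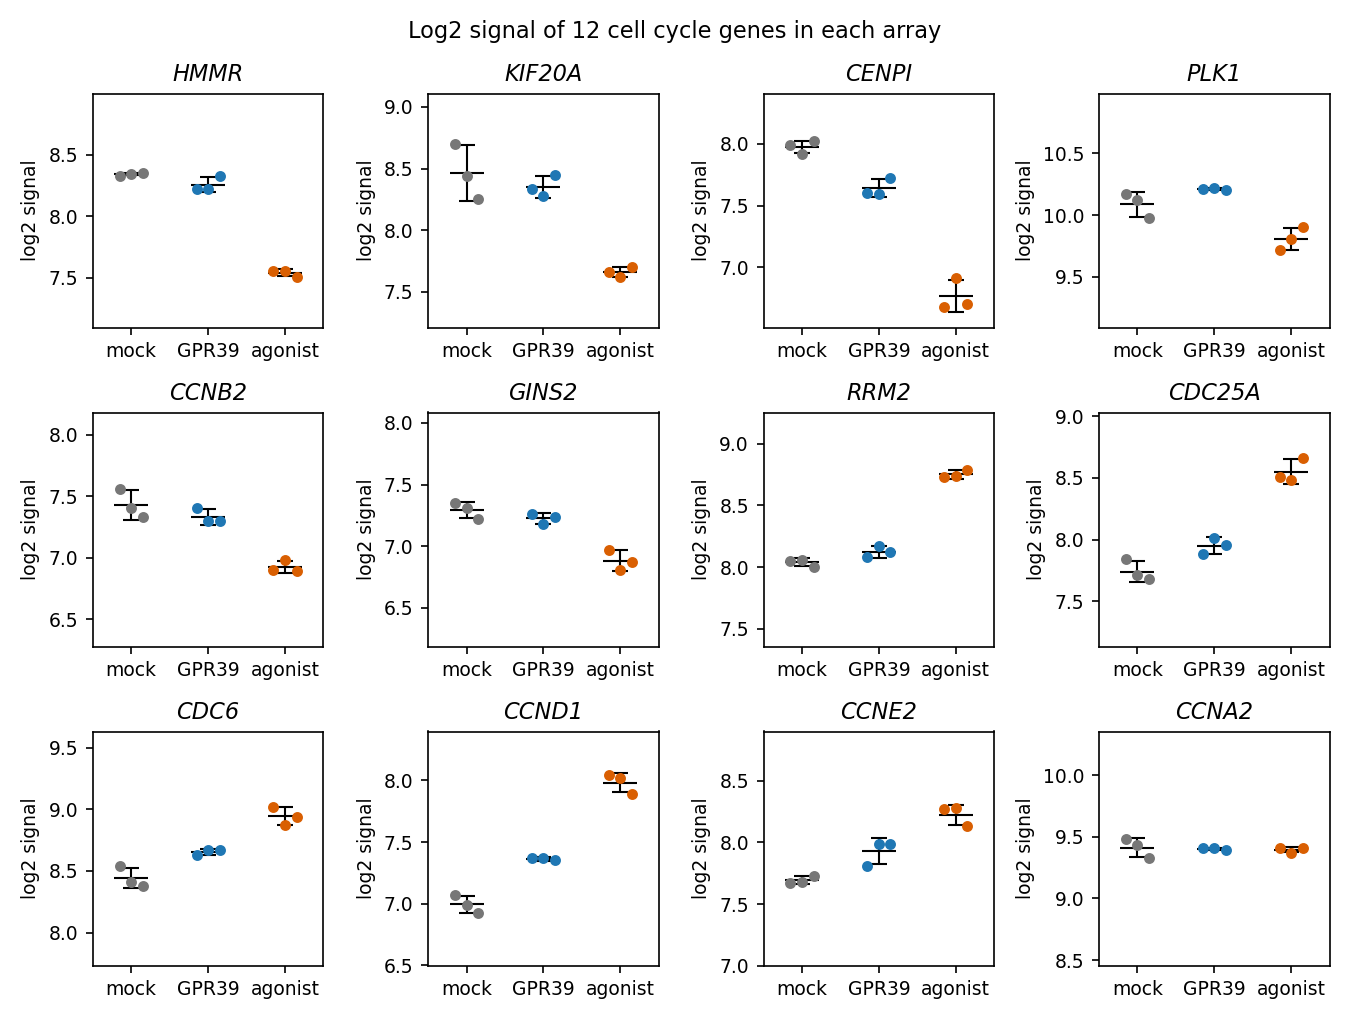
Log2 signal (y axis) of 12 cell cycle genes in each of the 9 arrays, with points for arrays, bars for group means and lines for the SD over 3 arrays. RRM2, CDC25A and CCND1 are highest in the agonist arrays, and HMMR, CENPI, KIF20A and CCNB2 are lowest there.

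Most mitosis genes had values below 0 in the agonist comparisons, but few passed the test against GPR39. HMMR, KIF20A, CENPI and PLK1 fell in both agonist comparisons. Of 47 tested mitosis genes, 0 rose and 4 fell in agonist against GPR39, 36 of them with a value below 0 and a median of -0.14. Those 4 are 8.51%, near the 9.69% of named genes called lower, and 56.3% of named genes had a value below 0. Agonist against mock gave 2 rises and 15 falls, 32 were below 0 and the median was -0.19, where 14% of named genes fell and 51.8% were below 0. The 15 falls are 31.9%. Without mock replicate 1 the counts against mock were 3 rises and 12 falls, and the falls were 9 without mock replicate 2. After centring on the 75th percentile the rises and falls were 3 and 8. In GPR39 against mock 0 were called in either direction, 8 (17%) had an unadjusted p under 0.05, near the background above, and the median was -0.04.

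HMMR, a spindle protein and hyaluronan receptor, read 8.33, 8.34 and 8.35 in mock, 8.22, 8.22 and 8.33 in GPR39 and 7.56, 7.56 and 7.51 in agonist. The agonist arrays formed a tight group far under the rest, while mock and GPR39 arrays nearly met. HMMR fell by 0.71 ± 0.06 in agonist against GPR39 (adjusted p = 0.000575) and by 0.80 ± 0.06 in agonist against mock (adjusted p = 0.00014), which is 1.74-fold. Its promoter carries the doubled CHR letters printed above.

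CENPI is a subunit of the inner kinetochore. It read 7.99, 7.92 and 8.02 in mock, 7.60, 7.59 and 7.72 in GPR39 and 6.68, 6.91 and 6.70 in agonist, and the 3 groups stepped down without overlap. It fell by 0.88 ± 0.08 in agonist against GPR39 (adjusted p = 0.000951) and by 1.21 ± 0.08, or 2.32-fold, in agonist against mock (adjusted p = 8.21e-05), the largest change of the 116 genes in either agonist comparison. In GPR39 against mock it was lower by 0.34 and did not pass (adjusted p = 0.122).

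PLK1, the kinase that drives entry into and passage through mitosis, read 10.17, 10.12 and 9.98 in mock, 10.21, 10.22 and 10.20 in GPR39 and 9.72, 9.81 and 9.90 in agonist. Agonist arrays were the lowest, but mock replicate 3 came close to agonist replicate 3. PLK1 fell by 0.40 ± 0.08 in agonist against GPR39 (adjusted p = 0.0168) and by 0.28 ± 0.08 in agonist against mock (adjusted p = 0.0459). The first call was lost without any GPR39 array or agonist replicate 1 (adjusted p up to 0.0628), the second in 7 of 9 fits (up to 0.125). HMMR, CENPI and KIF20A kept both calls in all 9.

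The kinesins of cell division, 15 motors that build the spindle or cut the cells apart, held most of the mitosis falls against mock. Agonist against mock gave 9 falls and 0 rises among the 15, against 14% of named genes lower, with a median of -0.34. Just KIF20A fell in agonist against GPR39 (6.67%, beside 9.69% of named genes), though 13 of 15 were below 0 with a median of -0.23. Of named genes 56.3% were below 0 there. In GPR39 against mock 0 were called and the median was -0.07. The median deviation of the group from its own 9-array mean was 0.09 to 0.11 in mock arrays and 0.02 to 0.03 in GPR39 arrays. In agonist arrays it was -0.18 to -0.11, so the groups of arrays did not overlap on the values as deposited. After centring on the 75th percentile the median change in GPR39 against mock was -0.01 in place of -0.07. It was then -0.22 in agonist against GPR39 and -0.27 in agonist against mock. The 9 falls became 5 after centring on the 75th percentile (KIF14, KIF15, KIF20A, KIF4A and KIF4B), 4 when the GPR39 arrays were left out of the fit and 6 without mock replicate 1.

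KIF20A, a motor of the central spindle and of cytokinesis, read 8.70, 8.44 and 8.25 in mock, 8.33, 8.28 and 8.45 in GPR39 and 7.66, 7.62 and 7.70 in agonist. Mock and GPR39 arrays overlapped and agonist arrays were lowest by a wide gap. It fell by 0.69 ± 0.11 (adjusted p = 0.00935) and 0.80 ± 0.11 (adjusted p = 0.0026). KIF14, which acts at the midbody, read 8.23, 8.38 and 8.41 in mock, 8.16, 8.16 and 8.25 in GPR39 and 7.87, 7.98 and 7.77 in agonist. Agonist arrays were again the lowest. It fell by 0.47 ± 0.08 against mock (adjusted p = 0.00696) and just missed against GPR39 at -0.32 (adjusted p = 0.0527).

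KIF4A, a chromosome-bound motor, read 8.58, 8.41 and 8.43 in mock, 8.23, 8.27 and 8.22 in GPR39 and 8.13, 7.92 and 7.98 in agonist, in 3 steps. It fell by 0.46 ± 0.08 against mock (adjusted p = 0.00657). KIF4B, its near-identical copy, fell by 0.44 ± 0.09 (adjusted p = 0.0142), and signal of one may stem from the other. KIF15, a spindle motor that can stand in for KIF11, fell by 0.41 ± 0.08 (adjusted p = 0.0139). Its mock arrays (6.19, 6.20 and 6.15) were above the GPR39 (5.87, 5.89 and 5.92) and agonist arrays (5.78, 5.92 and 5.61), and those groups overlapped.

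The falls of KIF18A (0.41), KIFC1 (0.34), KIF22 (0.34) and KIF2A (0.23) against mock complete the 9. KIF18A limits chromosome swings, KIFC1 focuses spindle poles, KIF22 pushes chromosome arms and KIF2A shortens microtubules. Of these, KIFC1 alone kept its call in all 9 fits without 1 array. KIF2A lost it in 9 of 9 (adjusted p up to 0.117), KIF18A in 8 (up to 0.0994) and KIF22 without mock replicate 1 or 2 or agonist replicate 1 or 2 (up to 0.0777). A dimmer KIFC1 probe set stood at -0.09 against mock (adjusted p = 0.606), while its remaining probe sets were called lower. Among these, another KIFC1 probe set repeats the values of the probe set used in all 9 arrays. The last read close to both (-0.36 against mock), so these calls are not separate evidence.

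KIF11, the motor that pushes spindle poles apart, had another pattern. It read 9.39, 9.36 and 9.36 in mock, 9.66, 9.66 and 9.75 in GPR39 and 9.48, 9.48 and 9.32 in agonist, with GPR39 arrays above all others. No difference passed, at 0.32 ± 0.07 in GPR39 against mock (adjusted p = 0.0853), -0.26 ± 0.07 in agonist against GPR39 (adjusted p = 0.0562) and 0.06 ± 0.07 in agonist against mock (adjusted p = 0.637). KIF23, a motor of the central spindle, was at -0.17 against mock (adjusted p = 0.116).

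**Figure D3:**
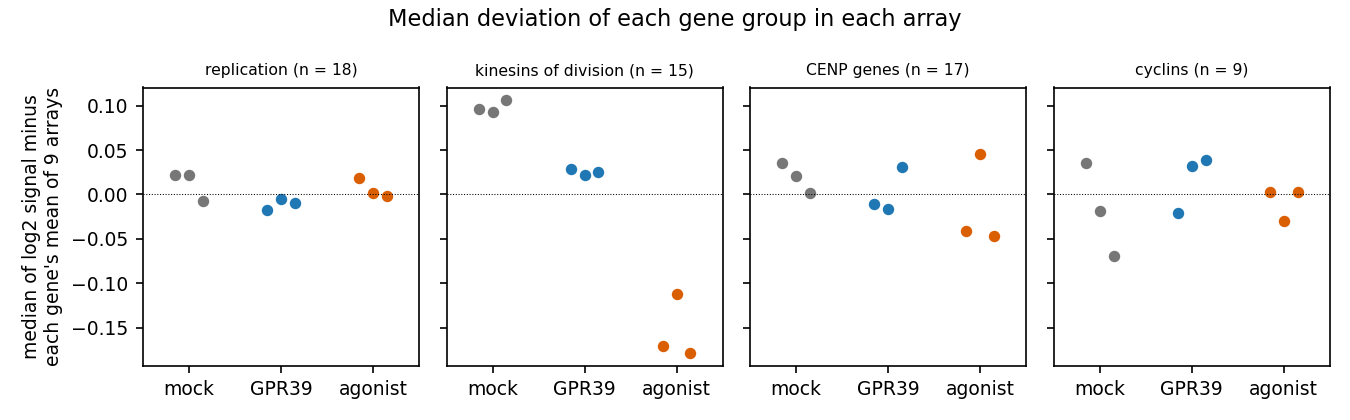
Median deviation of gene groups from their own 9-array means (y axis, log2) in each array, 1 panel per group with 1 point per array. Division kinesins lie at 0.09 to 0.11 in mock arrays and -0.18 to -0.11 in agonist arrays. The median of replication genes stays near 0 in all arrays, although single genes moved both ways.

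The 17 CENP genes did not follow the kinesins. Agonist against mock gave 2 rises and 1 fall and the median was -0.06, and in agonist against GPR39 just CENPI fell, with a median of -0.02. The fall is 5.88% in each, beside 14% and 9.69% of named genes. The rises against mock are 11.8%, beside 7.82%. The falls against mock were 2 without mock replicate 1, without mock replicate 3 or without agonist replicate 3, and 3 without agonist replicate 2. CENPN, the subunit that reads the centromeric nucleosome, read 8.25, 8.16 and 8.09 in mock, 8.42, 8.41 and 8.46 in GPR39 and 8.64, 8.77 and 8.63 in agonist. The groups climbed without overlap, and CENPN rose by 0.51 ± 0.07 in agonist against mock (adjusted p = 0.00236). CENPQ, another inner kinetochore subunit, read 7.02, 6.86 and 6.81, then 7.11, 7.13 and 7.21, then 7.38, 7.59 and 7.31 in the same order. It too climbed without overlap and rose by 0.53 ± 0.09 (adjusted p = 0.00692). CENPC, the scaffold of the inner kinetochore, was called lower in GPR39 against mock only in the fit without mock replicate 1 (-0.39, adjusted p = 0.0429).

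Among the other 15 mitosis genes, HMMR and PLK1 fell in agonist against GPR39, and HMMR, PLK1, CDC14B, CDC16 and CDC27 fell in agonist against mock. These falls are 13.3% and 33.3%, beside 9.69% and 14% of named genes. The falls against mock were 4 without mock replicate 1, 3 without any 1 GPR39 array or agonist replicate 1, and 2 without mock replicate 2 or after centring on the 75th percentile. Those against GPR39 were 1, HMMR, without any 1 GPR39 array or agonist replicate 1. CDC16 and CDC27 are subunits of the anaphase-promoting complex and fell by 0.30 ± 0.08 (adjusted p = 0.0349) and 0.28 ± 0.06 (adjusted p = 0.0199). CDC16 lost its call in 7 fits without 1 array (adjusted p up to 0.0953) and CDC27 without agonist replicate 3 (0.0562). CDC14B, a phosphatase, was dim, with 3.71, 3.98 and 3.76 in mock, 3.58, 3.39 and 3.30 in GPR39 and 2.57, 3.27 and 3.05 in agonist. Its lowest agonist array lay at or below the 40th percentile. It fell by 0.86 ± 0.17 against mock (adjusted p = 0.0135), and not past the threshold without mock replicate 2 (0.0516). CDC20, the activator of that complex, was at -0.37 against mock (adjusted p = 0.053) with agonist arrays spread from 8.04 to 8.44.

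**Figure D4:**
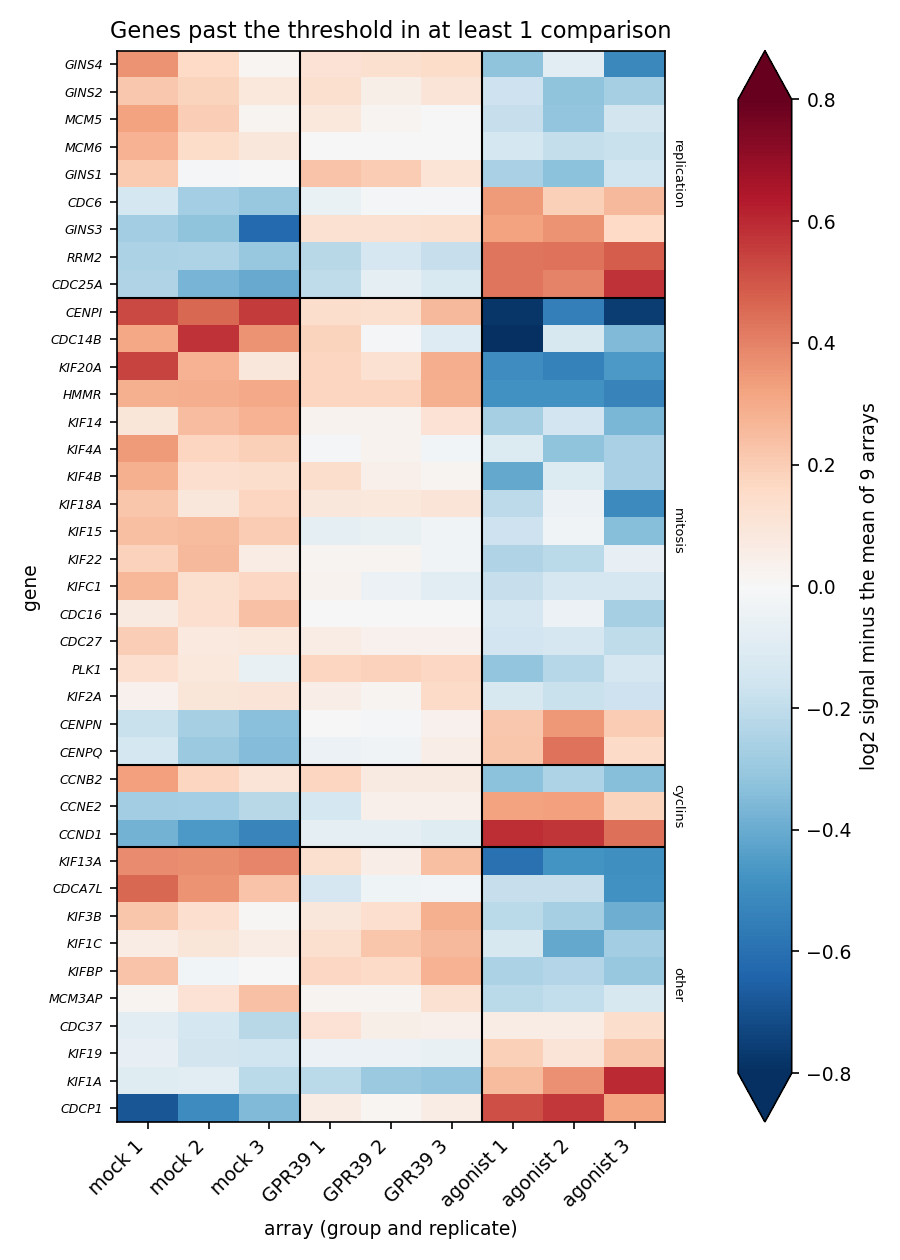
Deviation of each gene from its 9-array mean (colour, log2) in each array, for the genes past the threshold in at least 1 comparison, 1 row per gene and 1 column per array. Among mitosis genes CENPN and CENPQ are high in agonist arrays and the called kinesins are low there.

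The cyclins moved in different directions. Cyclin D1 and cyclin E2, which act in G1 and at S entry, were higher in agonist arrays, and cyclin B2, which acts at mitosis, was lower. Of 9 tested cyclin genes 0 were called in GPR39 against mock, 1 rose and 1 fell in agonist against GPR39, and 2 rose and 1 fell in agonist against mock. The shares were 11.1% higher and 11.1% lower against GPR39, where named genes had 3.64% and 9.69%. Against mock they were 22.2% and 11.1%, where named genes had 7.82% and 14%. Without mock replicate 1 the agonist counts were as before and CCND1 was called higher in GPR39 against mock. CCND1 read 7.07, 6.99 and 6.92 in mock, 7.37, 7.37 and 7.35 in GPR39 and 8.04, 8.02 and 7.89 in agonist. The 3 groups were far apart and did not overlap. CCND1 rose by 0.62 ± 0.07 in agonist against GPR39 (adjusted p = 0.00201) and by 0.99 ± 0.07, or 1.98-fold, in agonist against mock (adjusted p = 9.15e-05). In GPR39 against mock it was higher by 0.37 ± 0.07 and just missed (adjusted p = 0.0546), and passed without mock replicate 1 (0.40, adjusted p = 0.0355).

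CCNE2 read 7.67, 7.68 and 7.73 in mock, 7.81, 7.99 and 7.99 in GPR39 and 8.27, 8.28 and 8.13 in agonist, rising in steps over the groups. It rose by 0.53 ± 0.08 in agonist against mock (adjusted p = 0.0033), and in agonist against GPR39 it was higher by 0.29 ± 0.08 and missed (adjusted p = 0.0564). Its relative CCNE1 was at 0.12 against mock (adjusted p = 0.386). CCNB2 read 7.56, 7.40 and 7.33 in mock, 7.40, 7.30 and 7.30 in GPR39 and 6.90, 6.98 and 6.89 in agonist. Mock and GPR39 overlapped, with agonist below both. It fell by 0.41 ± 0.08 against GPR39 (adjusted p = 0.018) and 0.51 ± 0.08 against mock (adjusted p = 0.00421). The call against GPR39 was lost without any GPR39 array or agonist replicate 1 or 3 (adjusted p up to 0.0682).

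CCNB1, the other main mitotic cyclin, read 8.83, 8.77 and 8.69 in mock, 8.73, 8.93 and 8.87 in GPR39 and 8.70, 8.68 and 8.60 in agonist, and did not pass in any comparison (-0.10 in agonist against mock, adjusted p = 0.44). CCNA2, the cyclin of S and G2 phase, stayed within 9.33 to 9.48 over all 9 arrays. Its difference in agonist against mock was -0.02, with a 95% interval from -0.16 to 0.13. CCND2, a second D cyclin, was at -0.21 in both agonist comparisons (adjusted p = 0.0868 and 0.0704), with agonist arrays of 6.94 to 7.02 below all others. A dimmer CCND2 probe set stood at -0.26 in agonist against GPR39 (adjusted p = 0.124). Against mock it stood at -0.02 (adjusted p = 0.906), where its arrays overlapped. CCND3 stayed between 4.53 and 4.69, and CCNB3, a cyclin known from meiosis, was dim at 2.88 to 3.10.

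The genes placed under none of these roles gave the single call of GPR39 against mock. CDCP1, a membrane protein that passes signals of Src kinases and takes no part in the cycle, read 4.33, 4.51 and 4.66 in mock, 5.07, 5.03 and 5.07 in GPR39 and 5.53, 5.58 and 5.33 in agonist. The groups stepped up without overlap. It rose by 0.55 ± 0.10 in GPR39 against mock (adjusted p = 0.0495), 0.43 ± 0.10 in agonist against GPR39 (adjusted p = 0.0376) and 0.98 ± 0.10 in agonist against mock (adjusted p = 0.000623). The first call was lost in 8 of 9 fits without 1 array, all but that without mock replicate 1 (adjusted p up to 0.171). The second was lost in 6, those without mock replicate 2, any GPR39 array or agonist replicate 1 or 2 (up to 0.115).

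The 28 tested genes with a KIF name outside cell division, mostly motors of transport, held 1 rise and 4 falls in agonist against GPR39 and 2 rises and 4 falls in agonist against mock, with medians of -0.01 and 0.06. The falls were 14.3% in each, beside 9.69% and 14% of named genes, and the rises 3.57% and 7.14%, beside 3.64% and 7.82%. Against mock the falls were 3 without mock replicate 1, 2 without mock replicate 2 or agonist replicate 2, and 1, KIF13A, without agonist replicate 3 or after centring on the 75th percentile. Against GPR39 they were 2 without GPR39 replicate 3. KIF13A, which carries endosomes, read 6.37, 6.36 and 6.38 in mock, 6.12, 6.04 and 6.23 in GPR39 and 5.39, 5.51 and 5.50 in agonist, stepping down without overlap. It fell by 0.66 ± 0.07 (adjusted p = 0.00192) and 0.91 ± 0.07 (adjusted p = 0.000187). KIF1A, the carrier of synaptic vesicle precursors, read 6.51, 6.52 and 6.39 in mock, 6.39, 6.31 and 6.29 in GPR39 and 6.86, 6.97 and 7.20 in agonist. Agonist arrays were highest, and it rose by 0.68 ± 0.10 (adjusted p = 0.00495) and 0.54 ± 0.10 (adjusted p = 0.00736).

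KIF1C, a fast transport motor, fell by 0.48 ± 0.08 in agonist against GPR39 (adjusted p = 0.0114), and KIFBP, a kinesin-binding protein, by 0.46 ± 0.08 (adjusted p = 0.0139). Both were also called lower against mock, at -0.35 and -0.33. The 14 other genes without a KIF name held 1 rise and 0 falls in agonist against GPR39 and 2 rises and 2 falls in agonist against mock, also without mock replicate 1. The rises are 7.14% and 14.3%, beside 3.64% and 7.82% of named genes. The falls are 0% and 14.3%, beside 9.69% and 14%. CDCA7L, a chromatin protein, fell by 0.63 ± 0.10 against mock (adjusted p = 0.00514). It read 7.18, 7.08 and 6.95 in mock, 6.59, 6.69 and 6.70 in GPR39 and 6.54, 6.54 and 6.24 in agonist, so mock stood above both other groups. The call of KIFBP against GPR39 was lost without GPR39 replicate 3 (adjusted p = 0.0571). Against mock, KIFBP lost it in 6 fits (up to 0.0911) and KIF1C in 5 (up to 0.0805).

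Other genes of the same pathways were listed from general knowledge, also with earlier results of these data known. Of 41 further replication genes 11 had a named probe set, all tested, and 2 fell in both agonist comparisons with 0 rises, also without mock replicate 1. That is 18.2%, beside 9.69% and 14% of named genes. TIMELESS, which protects the fork, read 7.99, 7.95 and 7.95 in mock, 7.57, 7.54 and 7.57 in GPR39 and 7.08, 7.05 and 7.18 in agonist. It stepped down without overlap and fell in all 3 comparisons, by 0.41 ± 0.06 in GPR39 against mock (adjusted p = 0.0258), 0.46 ± 0.06 in agonist against GPR39 (adjusted p = 0.00446) and 0.86 ± 0.06 in agonist against mock (adjusted p = 0.000104). WDHD1, which ties the helicase to the polymerase, fell by 0.68 ± 0.09 (adjusted p = 0.00452) and 0.98 ± 0.09 (adjusted p = 0.000405) in the agonist comparisons. The median of the 11 was -0.08 and -0.04 in these. Both kept their calls there in all 9 fits without 1 array, but TIMELESS lost its call in GPR39 against mock after centring on the 75th percentile, and in 5 fits, those without mock replicate 2 or 3 or any GPR39 array (adjusted p up to 0.111).

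Of 42 further mitosis genes 31 were named and tested. Agonist against GPR39 gave 1 rise and 7 falls with a median of -0.15, agonist against mock gave 2 rises and 8 falls with a median of -0.15, and 1 fell in GPR39 against mock. Of named genes 9.69% and 14% fell in these agonist comparisons. The 7 falls against GPR39 became 1 without any 1 GPR39 array, 3 without agonist replicate 1 or 3 and 4 without agonist replicate 2. Those against mock were 6 without mock replicate 1, beside 1 rise, and 5 without mock replicate 3. Centring on the 75th percentile left 4 falls in each agonist comparison and 0 in GPR39 against mock. ESPL1, the protease that cuts cohesin at anaphase, read 6.42, 6.49 and 6.34 in mock, 5.99 in each GPR39 array and 5.44, 5.52 and 5.56 in agonist. It fell in all 3 comparisons, by 0.43 ± 0.07 (adjusted p = 0.0271), 0.48 ± 0.07 (adjusted p = 0.00475) and 0.91 ± 0.07 (adjusted p = 0.000109). The GPR39 values of ESPL1 had an SD of 0.0, which lowers the spread behind these standard errors. NDC80, the outer kinetochore link to microtubules, fell by 0.47 ± 0.09 in agonist against GPR39 (adjusted p = 0.0164), and the checkpoint kinase TTK by 0.32 ± 0.07 (adjusted p = 0.0219). FBXO5, an inhibitor of the anaphase-promoting complex that is made at S entry, rose by 0.41 ± 0.07 (adjusted p = 0.0119). In fits without 1 array, ESPL1 lost its call in GPR39 against mock without mock replicate 2 or any GPR39 array (adjusted p up to 0.11). NDC80, TTK and FBXO5 lost theirs against GPR39 in 4, 5 and 1 of 9 fits (up to 0.0656, 0.0839 and 0.0505), always those without a GPR39 array, agonist replicate 1 or, for TTK, agonist replicate 3.

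Of 38 control genes of the cycle 26 were named and tested, and they too went both ways. Against GPR39, 2 rose and 3 fell in agonist arrays, and against mock 4 rose and 5 fell. Of named genes 3.64% rose and 9.69% fell against GPR39, and 7.82% and 14% against mock. The 3 falls against GPR39 were 1 without any 1 GPR39 array, and the 5 against mock were 3 without any 1 mock or GPR39 array or agonist replicate 1. Without mock replicate 1 the counts were 2 and 2, and 5 and 3, and after centring on the 75th percentile 2 and 2, and 4 and 3. GPR39 against mock gave 0 calls. MYC, a growth factor-driven transcription factor, read 5.95, 5.84 and 5.79 in mock, 5.92, 5.88 and 5.93 in GPR39 and 6.39, 6.56 and 6.56 in agonist. Agonist arrays were highest, and it rose by 0.59 ± 0.08 against GPR39 (adjusted p = 0.00356). E2F3, an activator of G1/S genes, rose by 0.45 ± 0.07 (adjusted p = 0.00584). RBL2, the pocket protein p130 of resting cells, read 8.22, 8.28 and 8.45, then 8.06, 8.06 and 8.11, then 7.44, 7.36 and 7.56 in the same order. Its agonist arrays were far the lowest, and it fell by 0.63 ± 0.08 (adjusted p = 0.00426). CHEK2, a DNA damage checkpoint kinase, fell by 0.39 ± 0.07 (adjusted p = 0.016), which was lost without any 1 GPR39 array (adjusted p up to 0.0601). MYC, E2F3 and RBL2 kept their calls in all 9 fits without 1 array.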

How the data were processed

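RNA of HEK293 cells was measured on 9 Affymetrix arrays, 3 per group. The authors deposited 1 value per probe set and array, on a log2 scale as judged from their range (0.717 to 13.49768). MAS5 is the tool that the submitters' processing notes name, without a version. How log2 values were reached and whether arrays were normalized to each other is not stated in what was used here. The platform annotation names 16098 of 53617 probe sets with 1 symbol, 0 with several and 37519 with none. All 119 member symbols were found in RefSeq genes of GRCh38.p14, from which promoters were also taken. Of all rows, 1318 repeat an earlier row. Some probe sets, among them those of ESPL1, MCM6 and CDC16, had equal values (SD of 0.0) in the GPR39 arrays. The number of arrays limits the precision.

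A single two-sided limma 3.58.1 fit (R 4.3.3, lmFit and eBayes) took all 9 arrays with group as the term, no covariate and no added scaling. It had 6 residual degrees of freedom and a prior of 2.12. The fit was tested on simulated data. Alternatives were no filter or a filter at the array median, centring on the 75th percentile, quantile normalization, an intensity trend, only the 2 groups compared, a replicate block, the mean of a gene's probe sets, and each array left out. Genes named were all tested replication genes and cyclins, all mitosis genes past the threshold plus the 4 brightest, up to 6 other genes by largest change, and up to 4 per pathway list by smallest p. CENPC, CDC20, CDCP2, KIF2B, KIF6 and KIF25 were named after their values were seen. The genes, roles and lists were chosen with earlier results of these data known.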

Additional observations from a re-analysis of the deposited data

How the results depend on the processing

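No call of a named gene reversed its direction under any alternative run. In GPR39 against mock, the 1 higher gene became 0 without the filter, with only these 2 groups fitted, with the replicate block or with the mean of a gene's probe sets, 3 with the filter at the array median and 4 with an intensity trend. Leaving out 1 array gave 0 to 3 higher and 0 to 1 lower. In agonist against GPR39, the 6 higher and 11 lower became 10 and 20 with the trend, and 4 to 6 and 6 to 12 without 1 array. With the trend 3.86% of all probe sets were higher and 7.17% lower. In agonist against mock, the 27 lower became 12 after centring on the 75th percentile and 12 with only these 2 groups fitted, and 15 to 22 without 1 array, with 11 to 13 higher. The lower share of all probe sets there went from 8.94% to 6.47% after centring and 5.55% with only these 2 groups. Arrays of equal number did not deviate together across the tested probe sets (correlations from -0.10 to 0.06). With 3 arrays a group this cannot settle whether equal numbers share a culture or day. The replicate block gave 0 higher and 0 lower calls for GPR39 against mock, 4 and 8 for agonist against GPR39, and 12 and 18 for agonist against mock. Changes of dim probe sets such as CDC14B, CCNB3 and KIF2B are limited by signal over background.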
